A study of Mus musculus with 50 samples.

Results

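Serum microRNAs (miRNAs) of mice with an experimental intracerebral hemorrhage were compared with those of untreated mice, using 10 of the 25 libraries of the series and 20 of its 50 count columns. The members were chosen by their labels alone, as the libraries titled ICH and those titled Naive, and every miRNA with enough counts was described. All mice were of the C57BL/6 strain and 8 to 12 weeks old. ICH mice (5 libraries) were anesthetized and fixed in a stereotactic frame, and 20 µL of their own blood was infused through a drilled hole into the left striatum, 3.7 mm deep. Naive mice (5 libraries) had no anesthesia, operation or infusion that the labels record. ICH_Sham mice (5 libraries), set beside them here, had the needle placed without any fluid being injected, and MCAO mice (5 libraries) had a filament in the left middle cerebral artery for 30 min followed by 150 min of reperfusion. The time from infusion to blood collection is not given in the sources used here for the ICH mice. A comparison of ICH with Naive therefore carries the hemorrhage together with anesthesia, drilling and the needle. The labels do not state that each library is a separate animal, so the p-values speak of spread among libraries, part of which may be technical.

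Mature miRNAs are short RNAs that guide Argonaute proteins to messenger RNAs, mainly through bases 2 to 8 from their 5′ end, the seed. In serum they are protected from ribonucleases by Argonaute proteins, lipoproteins and vesicles, and reach it from blood cells, platelets, endothelium, liver, muscle and other tissues. Several are used as markers of their source, such as miR-150 for lymphocytes, miR-486 and miR-451a for red cells, miR-1a for striated muscle, miR-122 for hepatocytes, and miR-9 and miR-124 for neural tissue. In serum, fewer cells of a type and less miRNA released per cell cannot be told apart.

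The mature sequences of the miRNAs that the results turn on are given 5′ to 3′ with the seed in capitals. They are RefSeq entries on GRCm38.p6, in which 24 of the 29 miRNAs that passed the test had a match. The first set is shown because its 5 members come from a single imprinted locus on chromosome 12 and all passed as higher in ICH than in Naive, with 5 different seeds.
miR-434-3p: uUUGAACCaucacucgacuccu
miR-379-5p: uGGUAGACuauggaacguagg
miR-300-3p: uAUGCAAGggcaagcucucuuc
miR-381-3p: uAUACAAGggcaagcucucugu
miR-382-5p: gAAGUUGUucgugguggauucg

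The second set groups miRNAs that rose with relatives of the same seed, so that shared and private bases can be compared. Both miRNAs with the seed UCACAGU passed the test. Of the 3 with CAGUGCA only miR-152-3p passed, and of the 3 with AGCACCA only miR-29a-3p passed.
miR-27a-3p: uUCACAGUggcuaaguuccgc
miR-27b-3p: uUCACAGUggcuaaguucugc
miR-152-3p: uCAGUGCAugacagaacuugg
miR-148a-3p: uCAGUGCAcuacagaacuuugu
miR-148b-3p: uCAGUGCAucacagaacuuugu
miR-29a-3p: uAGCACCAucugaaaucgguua
miR-29b-3p: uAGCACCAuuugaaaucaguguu
miR-29c-3p: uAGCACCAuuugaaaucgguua

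The third set holds 5 other miRNAs that passed as higher and share no seed, the last of them, miR-9-5p, on few counts.
miR-203-3p: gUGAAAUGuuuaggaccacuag
miR-205-5p: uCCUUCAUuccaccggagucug
miR-199a-3p: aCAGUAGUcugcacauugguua
miR-708-3p: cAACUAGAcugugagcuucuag
miR-9-5p: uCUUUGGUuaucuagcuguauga

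The last set holds miRNAs that fell, with a seed relative of miR-92a-3p that did not pass. It also shows why miR-3473b and miR-3473e were read as a single signal, since their sequences begin alike.
miR-3473b: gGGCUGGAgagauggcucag
miR-3473e: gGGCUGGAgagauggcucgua
miR-191-5p: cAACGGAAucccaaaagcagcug
miR-425-5p: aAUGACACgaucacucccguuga
miR-92a-3p: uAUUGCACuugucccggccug
miR-25-3p: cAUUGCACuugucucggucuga

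Depth differed between the groups. Each library was the sum of 2 sequencing runs, and totals ran from 92040 to 156842 counts in ICH and from 38393 to 83564 in Naive, without overlap. The log2 total was 16.8 ± 0.28 (SD, n = 5) in ICH and 15.7 ± 0.58 in Naive, a difference of 1.16 with an exact two-sided permutation p of 0.00794, the smallest that 252 splits allow (0.0159 after Benjamini-Hochberg adjustment over 4 such tests). ICH libraries had 396 to 475 miRNAs with a count and Naive libraries 337 to 405, and when every library was thinned to 38393 counts the ranges were 298 to 338 and 304 to 346. The log2 difference in the number detected was 0.26 before thinning and -0.04 after it (exact permutation p = 0.0238 and 0.381), so its direction turned with depth. Libraries were made from a fixed volume of serum, per the labels' protocols. Each library had an index tag of its own and ICH tags ran consecutively, so effects of tag and of group cannot be told apart. Values below are given as CPM, the count in a library relative to its scaled total, and are thus shares and not amounts per volume of serum.

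The most abundant miRNA after hemorrhage was miR-148a-3p, a miRNA of many tissues, with 10.0% ± 3.25 of the counts (SD, n = 5) against 5.32% ± 1.64 in Naive. That difference did not pass the test (log2 fold change 0.85, adjusted p = 0.155). In Naive the liver miRNA miR-122-5p led with 12.03% ± 12.97, against 6.02% ± 1.87 in ICH. Its CPM in Naive libraries were 28680, 30366, 33676, 176727 and 450460, and in ICH libraries 32104, 56496, 58680, 70157 and 77055. The Naive mean thus rested on 2 libraries, and the difference in miR-122-5p did not pass the test (log2 fold change -1.29, adjusted p = 0.240). miR-10b-5p, from the HoxD cluster, and miR-99a-5p were among the 4 most abundant in both groups with similar shares, 6.59% and 6.21% in ICH and 6.23% and 5.25% in Naive.

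A minority of the serum miRNAs tested differed between ICH and Naive. Of 199 miRNAs tested with edgeR's quasi-likelihood test, 29 passed an adjusted p of 0.05 (14.6%). Of the 29, 17 were higher in ICH (8.54%) and 12 lower (6.03%). These counts and those below hold miR-3473b and miR-3473e as separate entries, although they are read as a single signal. By size of the fitted change, the falls were led by miR-150-5p, the miR-3473b/e signal, miR-5126 and miR-486-5p. The rises were led by miR-9-5p, miR-205-5p, miR-379-5p, miR-300-3p, miR-203-3p, miR-708-3p, miR-129-5p, miR-1a-3p and miR-152-3p. Of these miR-9-5p and miR-129-5p, like miR-5126 among the falls, rested on few counts, as did the Naive values of miR-379-5p, miR-300-3p and miR-708-3p. Sizes ranged from 0.59 to 3.38 on the log2 scale, and the median over all 199 miRNAs was -0.00, with 99 values positive (49.7%) and 100 negative (50.3%). The 2 groups of libraries did not overlap for 13 of the 29, against 15 of the 199 tested (7.54%). Of the 13, 7 were higher in ICH and 6 lower, against 8 (4.02%) and 7 (3.52%) of all tested. In all 10 fits that left out 1 library, 14 of the 29 passed. When libraries were scaled by their totals alone the split was 17 higher and 4 lower, so the count of falls depended on the scaling; the 4 were miR-150-5p, miR-3473b, miR-3473e and miR-486-5p.

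**Figure D1:**
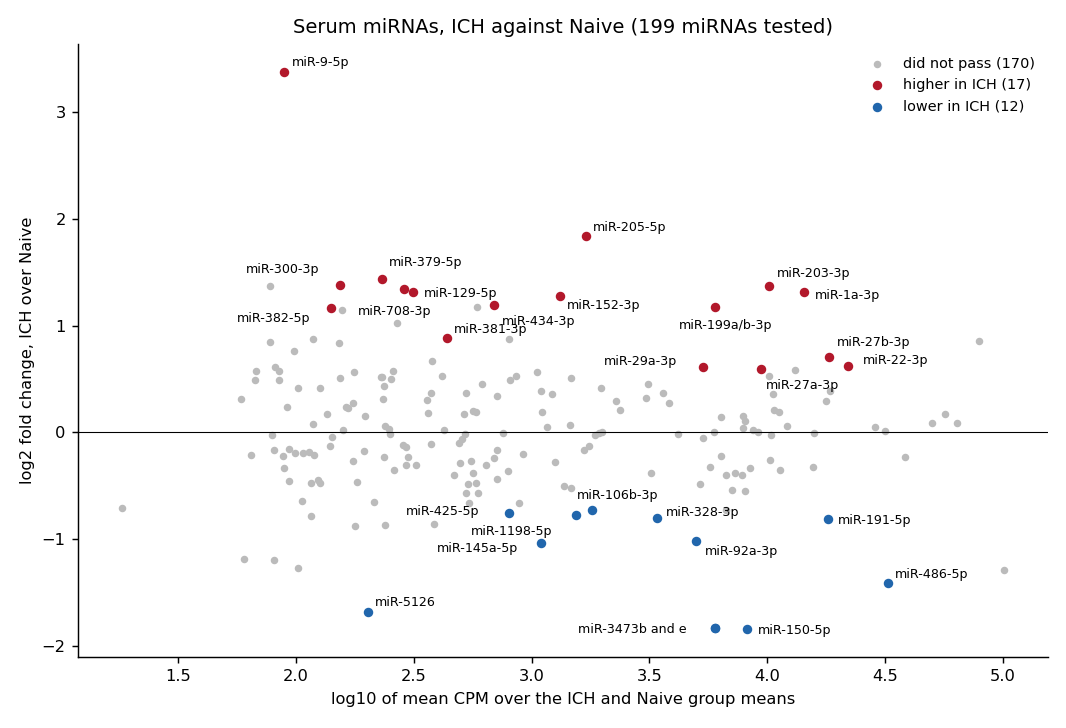
Each point is 1 of the 199 miRNAs tested, with the log10 of its mean CPM over the ICH and Naive group means on the x axis and the log2 fold change of ICH over Naive on the y axis; red points passed and were higher in ICH (17), blue points passed and were lower (12), and grey points did not pass (170). miR-150-5p and the miR-3473b/e signal lie lowest at -1.84 and -1.83, and miR-9-5p lies highest at 3.38 at the low end of abundance.

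The lymphocyte miRNA miR-150-5p, which restrains the transcription factor Myb in maturing B and T cells, had the smallest p of all. Its CPM were 7399, 11378, 13251, 14097 and 18152 in Naive libraries and 2551, 2683, 3316, 4383 and 4977 in ICH libraries. Every ICH library lay below every Naive library. The means were 12855 ± 3928 in Naive and 3582 ± 1064 in ICH (SD, n = 5), a 3.59-fold fall (log2 fold change -1.84 ± 0.27 SE, adjusted p = 2.77e-05). Of the 7 lymphocyte miRNAs tested it alone passed, and the median of the 7 was -0.33. Its other arm miR-150-3p was at -1.19 (adjusted p = 0.101) and miR-342-3p, another lymphocyte miRNA, at -0.86 (adjusted p = 0.0617). In the lymphocyte-linked miR-181 family the tested 5p arms had positive values, such as 0.67 for miR-181d-5p (adjusted p = 0.0608). The 3p arm miR-181a-1-3p was at -0.33 (adjusted p = 0.640). The T and B cell activation miRNA miR-155-5p was under the count filter, with 13 counts in all ICH libraries together and 12 in Naive.

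The red cell miRNA miR-486-5p, whose reads cannot be separated from those of miR-3107-5p, was also lower. Its CPM were 30994, 33237, 45075, 58558 and 67864 in Naive libraries and 14295, 14978, 18203, 19788 and 20981 in ICH libraries, with no overlap. It fell 2.67-fold, from 47146 ± 15954 to 17649 ± 2931 CPM (SD, n = 5; log2 fold change -1.42 ± 0.27 SE, adjusted p = 0.000384). It was the only one of 4 red cell miRNAs tested that passed, with a list median of -0.87. The other 3 were miR-144-3p at -1.27 (adjusted p = 0.0842), miR-486-3p at -0.48 (adjusted p = 0.414) and miR-451a, the most erythroid-restricted of them, at -0.33 (adjusted p = 0.520). Summed over the list, red cell miRNAs ranged from 39409 to 73683 CPM in Naive and from 16836 to 26624 in ICH. The mean sums were 53785 and 22871 CPM, and miR-486-5p made up most of both. The sum thus largely repeats that miRNA. Over the same Naive libraries, ICH_Sham had a median of -0.89 for the 4 red cell miRNAs, and 1 of them passed as lower.

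Red cell miRNAs were also set against miR-23a-3p, the usual partner in a hemolysis ratio. The log2 ratio of miR-486-5p to miR-23a-3p was 1.51 ± 0.45 in Naive and -0.24 ± 0.36 in ICH, a difference of -1.75 (exact two-sided permutation p = 0.00794, the smallest possible, adjusted 0.0159). The same ratio with miR-451a was -1.35 ± 0.49 in Naive and -2.15 ± 0.91 in ICH, and that difference of -0.80 did not pass (exact permutation p = 0.159, adjusted 0.159). Hemolysis was checked by absorbance, per the labels' protocols. With the miR-451a ratio as a covariate in the fit, 44 miRNAs passed in place of 29, and 26 of the 29 were among them.

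Among platelet and myeloid miRNAs the pair miR-191-5p and miR-425-5p fell. They are processed from the same transcript, and the annotation of GRCm38 puts both hairpins in an exon of the long noncoding RNA 4833445I07Rik on the plus strand, at chr9:108568319-108568392 and chr9:108568777-108568861. miR-191-5p, abundant in platelets, had 17492, 19500, 21397, 28531 and 28889 CPM in Naive libraries and 10601, 10843, 11219, 15525 and 17779 in ICH libraries. The ranges met only at the highest ICH and the lowest Naive library. Its mean went from 23162 ± 5251 to 13194 ± 3264 CPM (SD, n = 5; log2 fold change -0.81 ± 0.19 SE, adjusted p = 0.00333). miR-425-5p had 815.8 to 1206 CPM in Naive and 429.7 to 784.2 in ICH, without overlap (log2 fold change -0.76, adjusted p = 0.0119). The neutrophil miRNA miR-223-3p was level, at 525 ± 96.2 CPM in Naive and 522 ± 98.6 in ICH (log2 fold change -0.02, adjusted p = 0.983). No other of the 9 platelet and myeloid miRNAs tested passed, and the list median was -0.22. Scaled by library totals alone, or with no filter on low counts, neither miR-191-5p nor miR-425-5p passed. miR-425-5p also did not pass when libraries were thinned to 1 depth (-0.51, adjusted p = 0.169) or with run 2 alone (-0.70, adjusted p = 0.0558).

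The miR-17-92 cluster and its paralogs, which promote proliferation and are rich in blood precursors, had 7 miRNAs tested, all with negative values and a median of -0.36, and 2 of them fell. Over all 199, 100 values were negative and 12 miRNAs fell (6.03%). In ICH_Sham against the same Naive libraries the median of the 7 was -0.54, and 2 passed as lower. miR-92a-3p had 3375, 5661, 6099, 8158 and 9970 CPM in Naive libraries and 2648, 2964, 3029, 3891 and 3893 in ICH libraries. Only the lowest Naive library lay among the ICH values, and the change was -1.02 (adjusted p = 0.0373). Its seed relatives miR-25-3p and miR-92b-3p were at -0.33 (adjusted p = 0.277) and 0.03 (adjusted p = 0.983). miR-106b-3p, whose hairpin lies in an intron of the replication gene Mcm7, had 2345 to 2486 CPM in 4 Naive libraries and 925.6 to 1232 in 4 ICH libraries. The remaining libraries crossed, with 1521 CPM in Naive 1 and 2548 in ICH 1 (log2 fold change -0.73, adjusted p = 0.0497). The call of miR-92a-3p was lost without ICH 1, ICH 2, ICH 4, Naive 4 or Naive 5 (-0.99 to -0.87, adjusted p = 0.0734 to 0.1201). That of miR-106b-3p was lost in 7 of 10 such fits, without ICH 2, 3, 4 or 5 or Naive 3, 4 or 5 (-0.74 to -0.62, adjusted p = 0.0670 to 0.126). Without ICH 1 the change of miR-106b-3p was -1.105 (adjusted p = 0.000702).

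The signal annotated as miR-3473b and miR-3473e fell as far as miR-150-5p. The 2 entries had 11633 and 11630 counts in the whole table and equal counts in 20 of 25 libraries, so they count as 1 result. miR-3473b had 5733, 7883, 10146, 10250 and 12837 CPM in Naive libraries and 939.4, 2263, 2424, 3335 and 4179 in ICH libraries. The groups did not overlap, and the mean went from 9370 ± 2685 to 2628 ± 1218 CPM (SD, n = 5), a 3.57-fold fall (log2 fold change -1.83 ± 0.32 SE, adjusted p = 0.00019). The letters of this miRNA resemble the start of the B2 short interspersed repeat, which is spread over the mouse genome. Its full 20-base sequence was found, on either strand, in 32 of 32851 promoter windows (0.0974%), whereas of the other mature sequences searched only miR-92b-3p had a window, 1 in number. Reads from such repeats and from the annotated hairpins, in an intron of Ccdc162 on the opposite strand (chr10:41670739-41670793) and in an intron of Rbks (chr5:31667231-31667340), cannot be told apart by these counts.

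The remaining falls were of single miRNAs. miR-145a-5p, a miRNA of vascular smooth muscle, had 1264, 1333, 1367, 1600 and 1836 CPM in Naive libraries and 504.9, 505.4, 616.2, 889.5 and 1092 in ICH libraries. The groups did not overlap (log2 fold change -1.04 ± 0.32 SE, adjusted p = 0.0280), whereas miR-143-3p from the same cluster was at 0.09 (adjusted p = 0.923). miR-328-3p changed by -0.80 (adjusted p = 0.0497), miR-1198-5p from an intron of Gripap1 by -0.78 (adjusted p = 0.0200), and miR-5126, annotated opposite an exon of Dner, by -1.68 (adjusted p = 0.0237). In all 3 the groups overlapped, and miR-5126 rested on 2 to 25 counts per library. The call was lost for miR-145a-5p without ICH 2, ICH 4, ICH 5 or Naive 5 (adjusted p = 0.0705 to 0.0842) and for miR-328-3p without ICH 1, 2 or 4 or Naive 1, 3, 4 or 5 (0.0540 to 0.148). It was lost for miR-1198-5p without ICH 2, ICH 4 or Naive 5 (0.0574 to 0.0685) and for miR-5126 without ICH 1, ICH 4, ICH 5 or Naive 3 (0.0506 to 0.101).

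**Figure D2:**
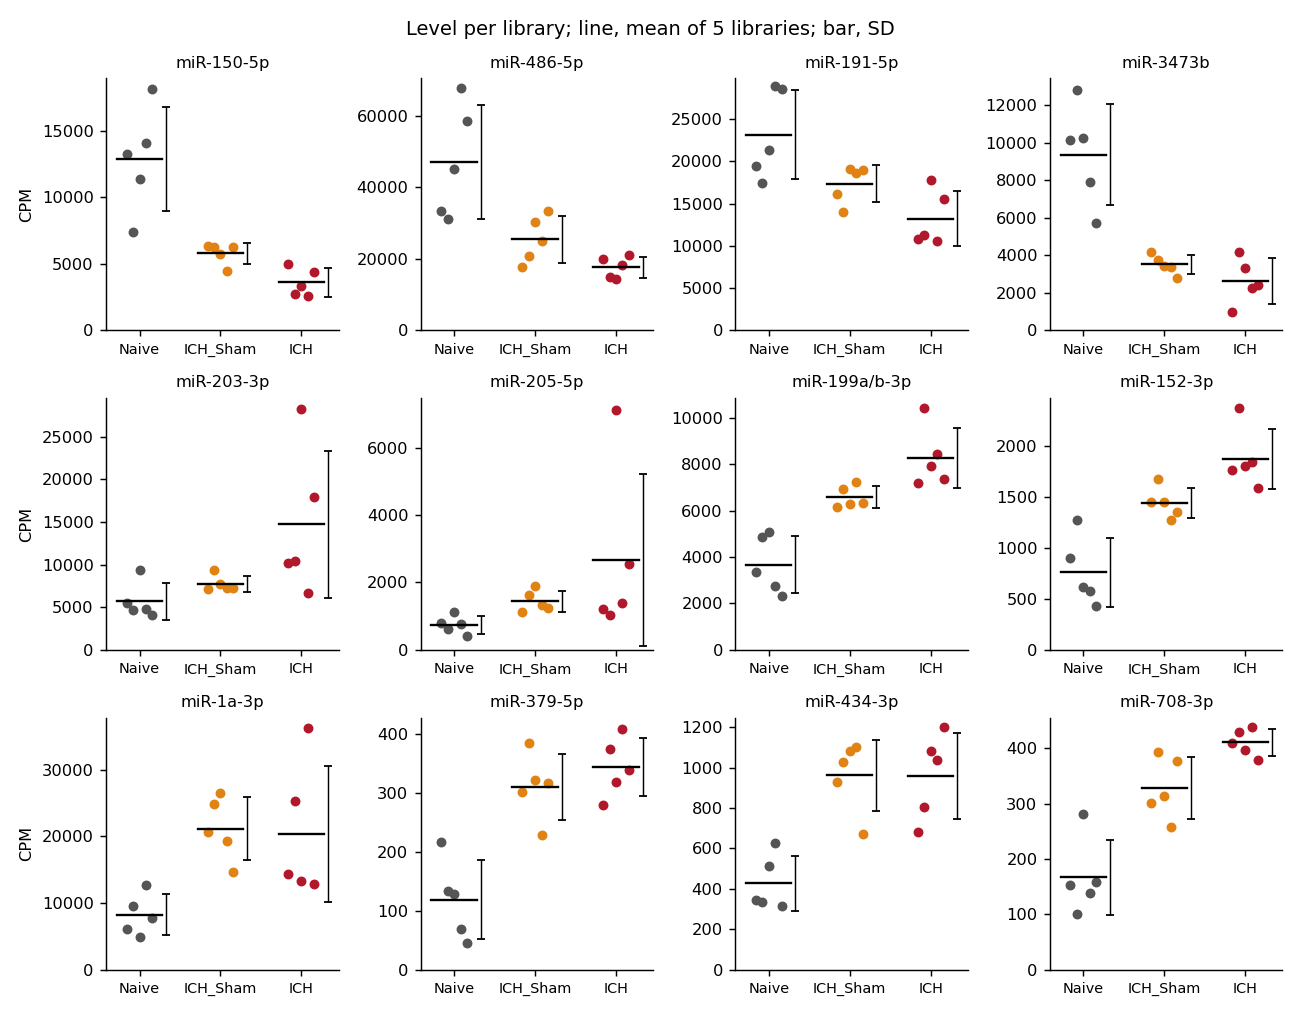
Each panel shows the CPM of 1 miRNA on a linear axis from 0, with 1 point per library for Naive, ICH_Sham and ICH, a line at the mean of 5 libraries and a bar of 1 SD. ICH lies below Naive for miR-150-5p, miR-486-5p and miR-3473b and above it for miR-199a/b-3p, miR-152-3p, miR-1a-3p, miR-379-5p, miR-434-3p and miR-708-3p without overlap, and 1 ICH library stands far above the rest for miR-205-5p, at 7118 CPM.

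Of the 17 that rose, 5 came from the imprinted Dlk1-Dio3 locus of chromosome 12, a large set of miRNAs transcribed from the maternal chromosome in brain, muscle and embryonic tissues. Of its 96 entries, 66 had a count and 13 were tested. All 13 had positive values, 5 rose and none fell, and the median was 0.61 against -0.00 over all 199. Among all 199, 99 had positive values and 17 rose (8.54%). Summed over the locus, ICH libraries had 4857, 5002, 6286, 6671 and 6755 CPM and Naive libraries 2629, 2968, 3271, 4190 and 4484. Every ICH library exceeded every Naive library. ICH_Sham libraries had sums of 4470, 4761, 5304, 5852 and 5921 CPM. Over the same Naive libraries their median for the 13 miRNAs was 0.50, and 2 passed as higher. The shift of this locus was thus also seen after the needle operation without blood.

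miR-434-3p, at the Rtl1 end of the locus (hairpin at chr12:109594506-109594599, plus strand, opposite an exon of the retrotransposon-derived gene Rtl1), had 317.3, 332.6, 345.0, 512.5 and 626.0 CPM in Naive libraries. In ICH libraries it had 679.6, 804.0, 1037, 1082 and 1200. The groups did not overlap (log2 fold change 1.19 ± 0.27 SE, adjusted p = 0.00273). Its other arm miR-434-5p was at 0.30 (adjusted p = 0.590), and the neighbouring miR-127-3p, also antisense to Rtl1, had 855 ± 100 CPM in Naive and 1260 ± 282 in ICH (0.57, adjusted p = 0.101).

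The other 4 that rose lie in the miR-379/410 cluster further along the same strand. miR-379-5p, the first hairpin of that cluster (chr12:109709060-109709125), had 45.3, 69.6, 128, 133 and 217.2 CPM in Naive libraries and 279.8, 317.7, 339.6, 374 and 408.9 in ICH libraries. miR-300-3p (chr12:109724313-109724391) had 22.7, 51.2, 69.6, 128 and 133 CPM in Naive libraries and 159, 190, 210, 243 and 334 in ICH libraries. Neither overlapped between the groups. miR-379-5p rose 2.71-fold (log2 fold change 1.44 ± 0.31 SE, adjusted p = 0.00166) and miR-300-3p 2.60-fold (1.38 ± 0.33 SE, adjusted p = 0.00435). Their Naive values came from only 1 to 17 counts per library. miR-381-3p (chr12:109726822-109726896) changed by 0.88 (adjusted p = 0.0361) and miR-382-5p (chr12:109733771-109733846, in an exon of Mirg) by 1.17 (adjusted p = 0.0468), both with overlapping groups. Their calls depended on single libraries, that of miR-381-3p lost without ICH 1, ICH 4, Naive 1, Naive 4 or Naive 5 (0.66 to 0.94, adjusted p = 0.0506 to 0.148) and that of miR-382-5p in 8 of 10 such fits, all but those without ICH 2 or Naive 3 (0.85 to 1.32, adjusted p = 0.0552 to 0.147).

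**Figure D3:**
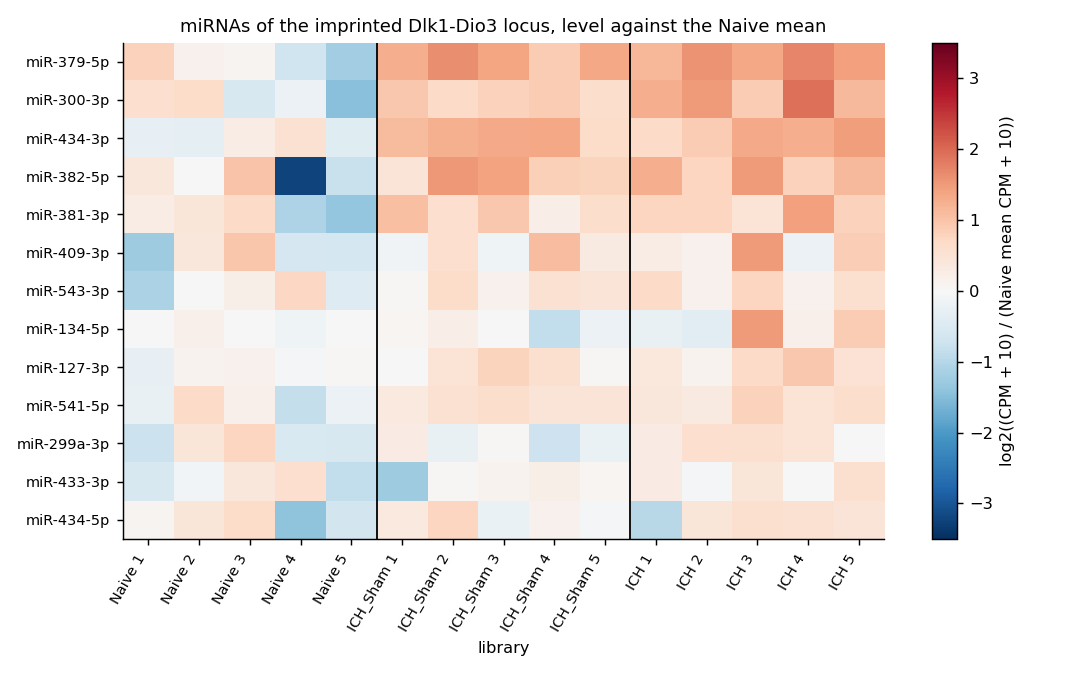
Rows are the 13 tested miRNAs of the imprinted Dlk1-Dio3 locus, ordered by log2 fold change of ICH over Naive, and columns are the 5 Naive, 5 ICH_Sham and 5 ICH libraries; colour gives log2 of the CPM plus 10 over the Naive mean plus 10, from blue (lower) to red (higher). Of the 65 ICH values 59 lie above the Naive mean (90.8%), against 30 of the Naive values (46.2%) and 49.7% of the ICH values of all 199 miRNAs, and the lowest value of the plot, -3.24, is miR-382-5p in Naive 4, where no read was counted. The Naive values themselves set that mean, so their share is no separate result. The 65 values come from 13 miRNAs of a single locus in the same 5 libraries and are not independent observations.

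The epithelial miRNAs miR-203-3p and miR-205-5p rose together. miR-203-3p promotes keratinocyte differentiation by repressing p63, and miR-205-5p keeps basal epithelium from mesenchymal change by repressing Zeb1 and Zeb2. miR-203-3p had 4056, 4706, 4753, 5520 and 9430 CPM in Naive libraries and 6720, 10184, 10462, 17981 and 28302 in ICH libraries. Only the highest Naive library reached into the ICH range (log2 fold change 1.37 ± 0.28 SE, adjusted p = 0.000932). miR-205-5p had 407.9, 615.2, 765.1, 805.0 and 1128 CPM in Naive libraries and 1028, 1219, 1394, 2551 and 7118 in ICH libraries. It showed the same small overlap (1.84 ± 0.40 SE, adjusted p = 0.00166). The ICH library 3 was highest for both. Without it the changes were 0.96 for miR-203-3p (adjusted p = 0.00803) and 1.02 for miR-205-5p (adjusted p = 0.0178). With the red cell ratio as a covariate the change of miR-205-5p was 1.22 (adjusted p = 0.0270).

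No other epithelial miRNA passed. The list held 11 tested miRNAs with a median of 0.19. Those of the miR-200 family, which marks simple epithelia, lay between -0.46 for miR-200b-5p (adjusted p = 0.401) and 0.36 for miR-200a-3p (adjusted p = 0.520), and miR-183-5p of the sensory epithelium was at 0.88 (adjusted p = 0.350). The summed level of the list was 13673 to 15975 CPM in Naive and 19170 to 46428 in ICH. Of mean sums of 15026 and 27146 CPM, miR-203-3p alone held 5693 in Naive and 14730 in ICH.

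The striated muscle miRNA miR-1a-3p, which drives cardiac and skeletal muscle differentiation, had 4946, 6083, 7773, 9478 and 12752 CPM in Naive libraries. In ICH libraries it had 12832, 13352, 14311, 25252 and 36175, the lowest of them just above the highest Naive value. It rose 2.48-fold (log2 fold change 1.31 ± 0.35 SE, adjusted p = 0.00993), and its call was lost without ICH 4 (1.002, adjusted p = 0.0628). It was the only one of 5 muscle miRNAs to pass, with a list median of 0.51. The others were miR-133b-3p at 1.18 (adjusted p = 0.0750), miR-133a-3p at 0.51 (adjusted p = 0.502), miR-206-3p, restricted to skeletal muscle, at 0.29 (adjusted p = 0.514) and miR-499-5p at -0.02 (adjusted p = 0.995). The heart miRNAs miR-208a-3p and miR-208b-3p were near the floor, with 1 count and 0 counts in all ICH libraries and 0 in Naive. A count of 0 allows up to 3 counts. Over the same Naive libraries, ICH_Sham had a larger median for the 5 muscle miRNAs, at 1.37. There miR-133b-3p also passed, at 1.92 (adjusted p = 0.00795), and miR-133a-3p was at 1.38 (adjusted p = 0.0734).

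The joined entry of miR-199a-3p and miR-199b-3p, whose mature sequences are identical, is a miRNA of mesenchymal cells made from hairpins opposite introns of the dynamin genes. It had 2312, 2759, 3361, 4855 and 5099 CPM in Naive libraries and 7186, 7383, 7912, 8436 and 10443 in ICH libraries. The groups lay well apart, with 3677 ± 1247 and 8272 ± 1308 CPM on average (SD, n = 5; 2.25-fold, log2 fold change 1.17 ± 0.21 SE, adjusted p = 0.00019). Of the 9 mesenchymal and smooth muscle miRNAs tested, it rose and miR-145a-5p fell, and the median was 0.08. The other arms miR-199a-5p and miR-199b-5p were at -0.17 (adjusted p = 0.788) and 0.08 (adjusted p = 0.937), and miR-214-3p, from the same primary transcript as miR-199a, was at 0.56 (adjusted p = 0.312).

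miR-152-3p, a repressor of the DNA methyltransferase Dnmt1 encoded in an intron of Copz2 (chr11:96850393-96850465), rose 2.42-fold. It had 430.6, 579.6, 615.0, 907.3 and 1280 CPM in Naive libraries and 1587, 1769, 1807, 1848 and 2375 in ICH libraries, with no overlap (log2 fold change 1.28 ± 0.27 SE, adjusted p = 0.00119). Its family members with the same seed did not pass. The values were 0.85 for the abundant miR-148a-3p (adjusted p = 0.155) and 0.38 for the rarer miR-148b-3p (adjusted p = 0.443). miR-708-3p had 99.8, 139, 153, 159 and 282 CPM in Naive libraries and 379, 397, 410, 430 and 438 in ICH libraries. The ICH libraries lay close together and all above Naive, a 2.53-fold rise (1.34 ± 0.24 SE, adjusted p = 0.000238) from 6 to 12 counts per Naive library.

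A further 4 miRNAs rose by less. miR-27a-3p and miR-27b-3p, which share a seed and restrain adipocyte differentiation, rose by 0.59 (adjusted p = 0.0273) and 0.71 (adjusted p = 0.0200), the latter from 13931 ± 2860 to 22777 ± 3652 CPM (SD, n = 5). All 6 tested miRNAs of the miR-23/27/24 clusters had positive values, with a median of 0.40, and the other 4 did not pass, where 99 of all 199 had positive values and 8.54% rose. miR-29a-3p, which represses collagen mRNAs, rose by 0.61 from 4211 ± 866 to 6458 ± 1093 CPM (adjusted p = 0.0164). Its relatives miR-29b-3p and miR-29c-3p had larger values, 0.88 (adjusted p = 0.114) and 0.85 (adjusted p = 0.205), and did not pass. miR-22-3p rose by 0.62, from 17383 ± 5110 to 26708 ± 3341 CPM (adjusted p = 0.0273), as the only one of 6 tested in the list with miR-26 and miR-101 (median 0.24).

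The groups overlapped for each of these 4 miRNAs, and their calls depended on single libraries. They were lost for miR-27a-3p and miR-22-3p without ICH 2, 3 or 4 or Naive 3, 4 or 5 (0.49 to 0.55, adjusted p = 0.0549 to 0.0809, and 0.50 to 0.58, adjusted p = 0.0536 to 0.102). They were lost for miR-27b-3p without ICH 4, Naive 1, Naive 4 or Naive 5 (0.61 to 0.68, adjusted p = 0.0529 to 0.0866) and for miR-29a-3p without ICH 4 or Naive 5 (0.55 and 0.52, adjusted p = 0.0583 and 0.0636). How the authors' counting treated reads that match several relatives is not given in the sources used here, so values of near-identical miRNAs such as miR-27a-3p and miR-27b-3p are uncertain as separate measurements.

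The largest fitted rise was that of a brain-enriched miRNA with few counts. miR-9-5p, a regulator of neural progenitors made from 3 hairpins, had 0, 0, 0, 1 and 3 counts in Naive libraries and 3, 6, 7, 19 and 82 in ICH libraries. In CPM, Naive libraries had up to 69.56 and ICH libraries 28.05, 55.28, 59.56, 189.9 and 472.2. Thus 3 of the 5 ICH libraries lay below the highest Naive library, and ICH 4 held most of the reads. The fitted log2 fold change was 3.38 ± 1.04 SE (adjusted p = 0.0280), a size that depends on how counts of 0 are handled. It was 2.33 without ICH 4 (adjusted p = 0.153) and 4.87 without Naive 4 (adjusted p = 0.0174), and the call was also lost without Naive 1, 2, 3 or 5 (up to 3.35, adjusted p from 0.0520). The neuronal miRNA miR-129-5p had 5 to 14 counts in Naive and 14 to 102 in ICH (76.7 to 278 and 131 to 730 CPM; 1.32, adjusted p = 0.0497). Its call was lost in 9 of the 10 fits without 1 library, all but that without ICH 2 (1.04 to 1.46, adjusted p = 0.0549 to 0.179).

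Of 34 entries in the brain list 26 had a count and 5 were tested, of which these 2 rose, and the median was 1.32, the value of miR-129-5p. The count filter ran over all 25 libraries. It kept miR-9-5p, with 0 to 3 counts in each Naive library, through other groups, which favors a positive value. Over all 199, 8.54% rose, and both brain calls were lost in 5 and 9 of the 10 fits without 1 library, as given above. The others were the oligodendrocyte miRNA miR-219a-2-3p at 1.37 (adjusted p = 0.369), with 47 of its 77 ICH counts in ICH 4, miR-338-5p at 0.23 (adjusted p = 0.692) and miR-128-3p at 0.06 (adjusted p = 0.879). miR-128-3p, which is neuron-enriched but also present in blood, made up most of the summed level, which was 7981 to 17223 CPM in Naive and 12153 to 14910 in ICH. Below the count filter, miR-124-3p, the most abundant neuronal miRNA, had 1, 2, 2, 7 and 15 counts in ICH libraries and 0 in every Naive library. ICH_Sham libraries together had 58 counts of miR-124-3p, 51 of them in 1 library.

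**Figure D4:**
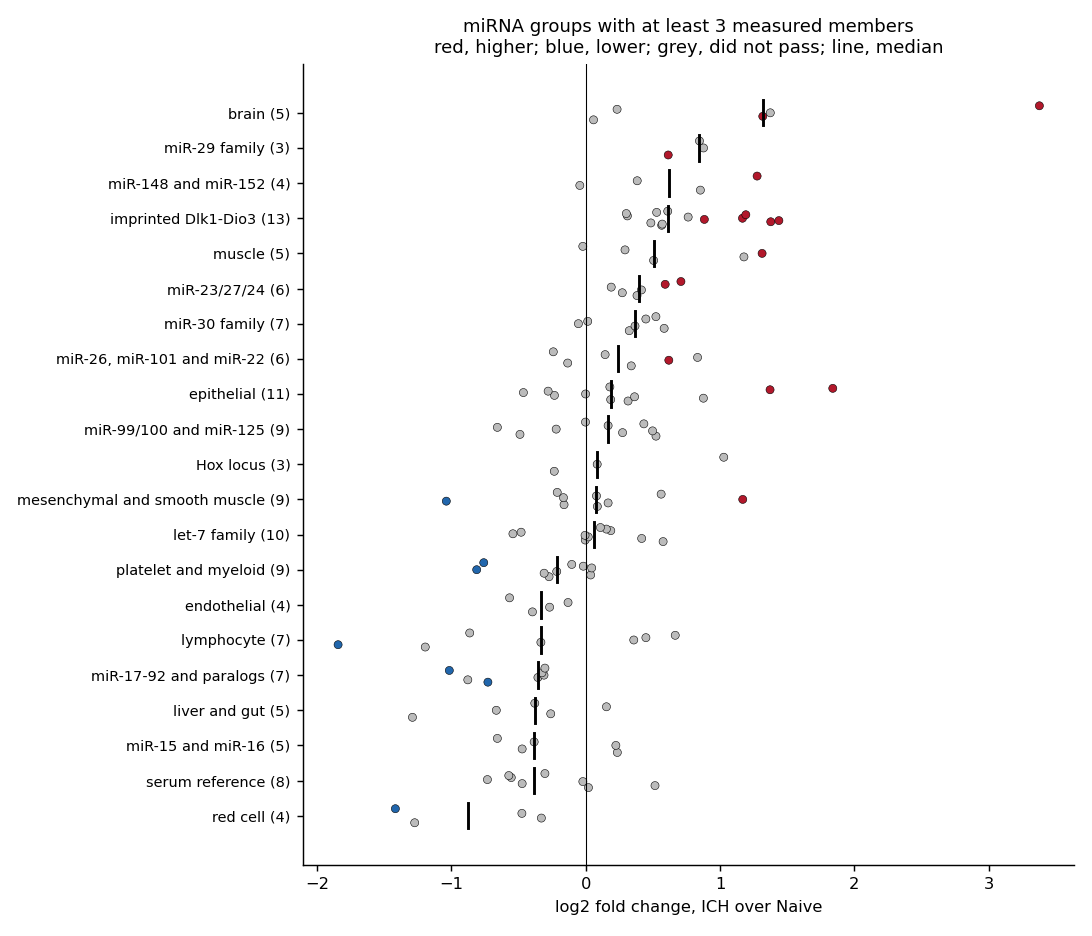
Each row is 1 of the miRNA groups with at least 3 tested members (number in parentheses), ordered by the median log2 fold change of ICH over Naive, which a black line marks; each point is 1 miRNA, red if it passed and was higher, blue if it passed and was lower and grey otherwise. The brain list lies highest with a median of 1.32 and the red cell list lowest at -0.87, and all 13 members of the imprinted Dlk1-Dio3 locus lie above 0. The brain median is the value of miR-129-5p, whose call was lost in 9 of 10 fits without 1 library.

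In 13 further groups no member passed or few could be tested. None of the 10 tested let-7 miRNAs passed (median 0.06), nor any of 7 of the miR-30 family (0.37, led by miR-30a-5p at 0.58, adjusted p = 0.0668), 9 of the miR-99/100 and miR-125 families (0.17), 5 of miR-15 and miR-16 (-0.38) or 3 from the Hox loci (0.09). The 4 endothelial miRNAs all had negative values and did not pass, with miR-126a-3p at -0.40 (adjusted p = 0.252) and a median of -0.33. The 5 liver and gut miRNAs had a median of -0.38. The 8 miRNAs often used as serum references had a median of -0.39, and miR-423-5p among them was at -0.55 (adjusted p = 0.101).

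Of the eye and choroid plexus miRNAs, miR-204-5p and miR-184-3p were at -0.41 and -0.36 (adjusted p = 0.450 for each). Of the neuroendocrine ones, miR-375-3p, an islet miRNA, was at -0.34 (adjusted p = 0.357) and miR-7a-5p at 0.37 (adjusted p = 0.589). From the p53-linked miR-34 and miR-449 families 1 miRNA was tested, miR-34c-5p at 0.58 (adjusted p = 0.450). From the Htr2c intron 1 was tested, miR-1298-5p, with 8 counts in ICH and 6 in Naive (-0.71, adjusted p = 0.717). The hypoxia miRNA miR-210-3p was under the filter, with 47 counts in all ICH libraries and 19 in all Naive libraries, whose totals also differed.

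The ICH_Sham libraries show where the needle operation without blood lay on the same scale. They share the Naive libraries with the comparison above, so the 2 sets of values over Naive are not independent and are given side by side. The change of miR-150-5p over Naive was -1.84 after hemorrhage and -1.15 after the sham operation (sham adjusted p = 0.00752), that of miR-3473b -1.83 and -1.42 (adjusted p = 0.00752), and that of miR-486-5p -1.42 and -0.89 (adjusted p = 0.0349). For miR-199a/b-3p it was 1.17 and 0.84 (adjusted p = 0.00815), for miR-152-3p 1.28 and 0.90 (adjusted p = 0.0349), and for miR-708-3p 1.34 and 1.02 (adjusted p = 0.00815). For miR-1a-3p it was 1.31 and 1.37 (adjusted p = 0.0103), for miR-434-3p 1.19 and 1.19 (adjusted p = 0.00752), and for miR-379-5p 1.44 and 1.29 (adjusted p = 0.00840). Smaller sham values that did not pass were seen for miR-203-3p, at 0.44 (adjusted p = 0.407), miR-205-5p, at 0.96 (adjusted p = 0.178), miR-191-5p, at -0.41 (adjusted p = 0.231), and miR-9-5p, at 1.84 (adjusted p = 0.454). For miR-106b-3p the value was -0.94 after the sham operation (sham adjusted p = 0.0175) and -0.73 after hemorrhage, or -1.105 without ICH 1. The direct difference between ICH and ICH_Sham did not pass for it (0.21, adjusted p = 0.760). In ICH_Sham against Naive 13 of the 199 passed (6.53%), 7 higher (3.52%) and 6 lower (3.02%).

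**Figure D5:**
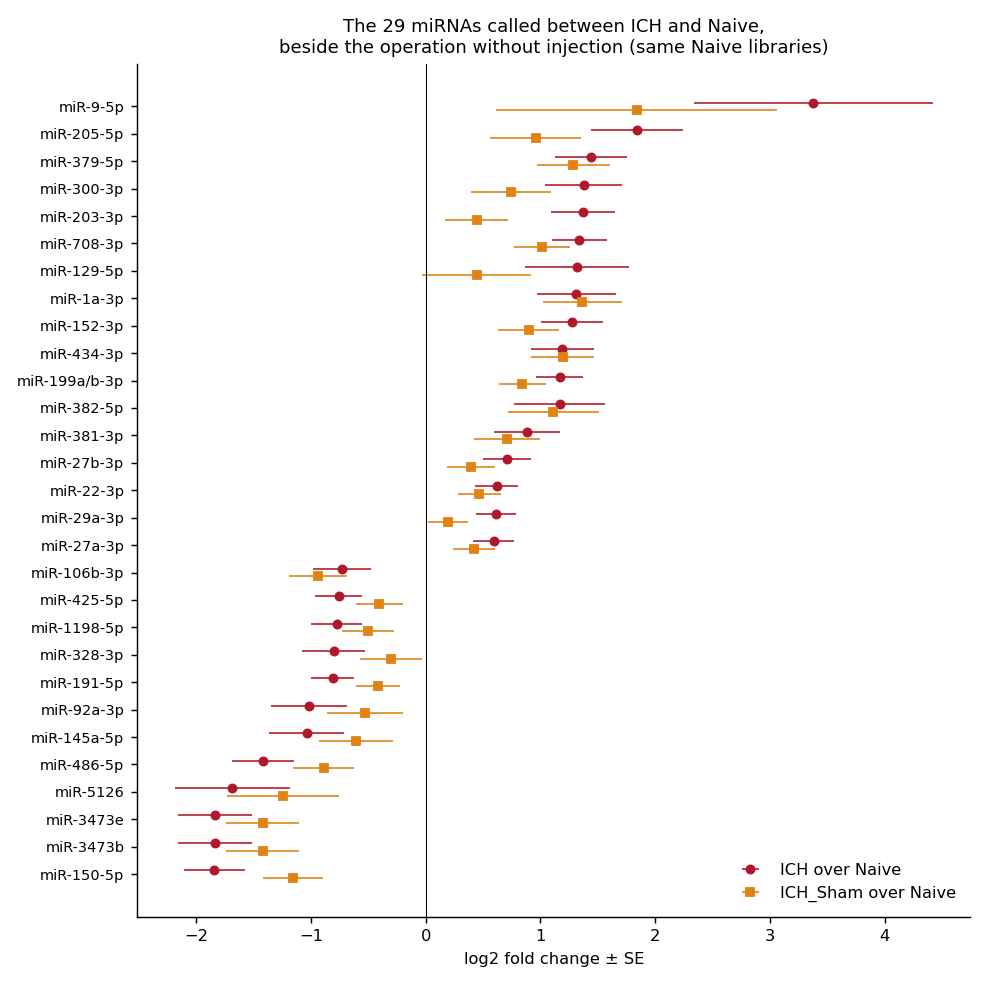
For the 29 miRNAs that passed between ICH and Naive, red circles give the log2 fold change of ICH over Naive and orange squares that of ICH_Sham over the same Naive libraries, with bars of 1 SE. The points of each miRNA lie on the same side of 0, near each other for miR-434-3p (1.19 and 1.19) and apart for miR-203-3p (1.37 and 0.44).

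Tested directly, ICH and ICH_Sham did not differ in any of the 199 miRNAs at an adjusted p of 0.05 with edgeR, where 20 had an unadjusted p under 0.05 (10.1%), as did 17 with DESeq2 and 19 with limma voom. The smallest adjusted p was 0.421, for miR-203-3p, with 14730 ± 8628 CPM in ICH and 7733 ± 914 in ICH_Sham (log2 difference 0.93). miR-150-5p was among the miRNAs with the smallest p, with 3582 ± 1064 CPM against 5779 ± 798 (-0.69, adjusted p = 0.462). Without ICH 4 a single miRNA passed. These p-values do not show that the needle operation and the hemorrhage act alike.

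Against the ischemic MCAO mice, 29 of 199 miRNAs passed (14.6%), 15 higher in ICH (7.54%) and 14 lower (7.04%). Of these, 4 had also passed between ICH and Naive, and both comparisons share the ICH libraries. The 4 were higher in ICH than in MCAO: miR-205-5p by 1.57 (adjusted p = 0.00443), miR-203-3p by 1.40 (adjusted p = 0.00123), miR-199a/b-3p by 0.84 (adjusted p = 0.00379) and miR-434-3p by 0.81 (adjusted p = 0.0259). The falls of miR-150-5p, miR-3473b and miR-486-5p were not told apart between the stroke models, with differences of -0.22 (adjusted p = 0.661), -0.68 (adjusted p = 0.163) and -0.11 (adjusted p = 0.830). The same held for miR-1a-3p, at -0.01 (adjusted p = 0.987). The largest difference was miR-1298-5p, at -6.52 (adjusted p = 1.61e-09), a member of the Htr2c cluster that was at 0 to 3 counts in each ICH and Naive library.

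Some features of the 29 were not used to choose them. Of the 17 that rose 12 were 3p arms and 5 were 5p arms, and of the 12 that fell 3 were 3p and 6 were 5p arms, with 3 named without an arm; among all 199 tested, 92 were 3p and 97 were 5p arms. A comparison of length or GC content is void, since a sequence was matched for 8 of the 12 that fell (66.7%). The opposite arms of miR-150, miR-486, miR-191, miR-199a, miR-199b, miR-434, miR-22 and miR-145a were tested too, and none of them passed. In each of these pairs the arm that passed was the more abundant one in both groups.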

How the data were processed

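Small RNA of 200 µL mouse serum was sequenced in 2 runs per library after clotting and a second spin to remove cells, per the labels' protocols. The deposited table holds raw counts of mature miRNAs, as whole numbers, for 1892 entries in 50 columns. The submitters' processing notes name Bowtie 0.12.9, whereas genome build, miRNA release, trimming and counter were not given in the sources used here. No entry for the worm spike-in was analysed, so values are relative.

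The 2 columns with the same index tag differed by close to sampling noise alone (a chi-square statistic of 0.792 to 1.27 per degree of freedom, against 11.2 or more between libraries of 1 group) and were summed. The filter of edgeR (minimum count 10) kept 199 miRNAs with 99.5% of all counts. After TMM scaling (a trimmed mean of log ratios), a mean for each of the 5 groups was fitted over the 25 libraries with edgeR's robust quasi-likelihood test, with Benjamini-Hochberg adjustment over the 199 and a threshold of 0.05. CPM are counts over the scaled library size. The standard error is the log2 fold change over the square root of F. The procedure was tested on simulated data. Single values were compared by exact permutation tests. Alternatives were other scalings, DESeq2, limma voom, other count filters, the 2 groups alone, a replicate block, each run alone, thinning (for the number detected, added after seeing the data), a red cell covariate and leaving out each library. Versions were Python 3.11.15, DESeq2 1.42.0, limma 3.58.1, edgeR 4.0.16 and R 4.3.3.

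Groups came from sample titles. The text names the 15 largest rises and falls that passed and kept their sign without each library, up to 4 miRNAs per list by p, the most abundant, and a few fixed references; miR-124-3p, miR-155-5p, miR-208a-3p, miR-208b-3p and opposite arms were added after their values were seen. The comparison, members and 27 lists of miRNAs were chosen with earlier results of these data known, so a list's count is no independent evidence. Locus positions are from RefSeq and GENCODE on GRCm38.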

Additional observations from a re-analysis of the deposited data

Results flagged for a closer look

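In 14 sets of 5 libraries, 6.8% of those examined, the highest or lowest library lay apart from its neighbour by more than 0.71 of the range, where chance gives about 1 in 20. In ICH 1, miR-106b-3p stood at 2548 CPM (others 925.6 to 1232), miR-25-3p at 21337 (11426 to 13022) and miR-214-3p at 59.96 (229 to 287.9). miR-184-3p was at 5133 CPM in ICH 2 (10348 to 12253 in the others) and miR-6538 at 19.85 in ICH 3 (37.4 to 40.31). The joined entry let-7a-1-3p/let-7c-2-3p was at 63.17 CPM in ICH 5 (109.2 to 120.9 in the others). The log2 ratio of miR-486-5p to miR-23a-3p was -0.88 in ICH 3, against -0.11 to -0.05 in the other ICH libraries.

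Among Naive libraries, miR-106b-3p was at 1521 CPM in Naive 1 (2345 to 2486 in the others) and miR-451a at 9262 in Naive 2 (5054 to 5980). Naive 3 had 108805 CPM of miR-10b-5p (43964 to 57059 in the others) and 486.9 of miR-30e-5p (731.6 to 792.3). Naive 4 had 46.37 CPM of let-7b-3p (89.45 to 102.5) and 69.56 of miR-148a-5p (140.6 to 181.3), and Naive 5 had 45.32 CPM of miR-29b-3p (83.14 to 102.5).

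Of miRNAs under the count filter, 2 were higher in ICH when no filter was applied. miR-7b-5p had 54 counts in ICH libraries, 34 of them in ICH 4, and 5 in Naive libraries (edgeR adjusted p = 0.0334). miR-9-3p, the other arm of miR-9, had 21 counts in ICH libraries, 13 of them in ICH 4, and 0 in Naive libraries (adjusted p = 0.0272), where a count of 0 allows up to 3.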

How the results depend on the processing

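The 29 calls between ICH and Naive became 18 with the 2 groups alone, 17 with run 1 alone and 44 with the red cell ratio as a covariate, and 15 to 35 when 1 library was left out, the fewest without ICH 4 (15) and Naive 5 (16). The other alternatives gave 21 to 38 calls. Of the 29, DESeq2 called all 29, other size factors (RLE) 28, limma voom 26, thinning to 1 depth 26 and scaling by totals alone 19. The split of higher and lower calls was 17 and 4 with totals alone, 17 and 7 with no filter, and 11 and 16 with a minimum count of 50. ICH_Sham against Naive gave 10 to 14 calls without 1 library and 20 with the replicate block. ICH against ICH_Sham gave 0 to 1, the 1 without ICH 4. ICH against MCAO gave 18 calls with a minimum count of 50, 15 with the 2 groups alone, 8 with the replicate block, 19 when thinned, 7 with the red cell covariate, and 16 to 40 without 1 library (16 without MCAO 2). The log2 difference in miRNAs detected ranged from 0.22 to 0.30 without 1 library, and did not pass without Naive 3, 4 or 5 (0.24, 0.24 and 0.25; exact permutation test, adjusted p = 0.0529 each). The cause of these shifts was not tested. After every library was thinned to the smallest total, a choice made after seeing the data, that difference turned to -0.0414. Of 2146 values of single miRNAs under the alternatives, 1920 kept direction and side of the threshold, 141 lost the call, 50 gained it and 35 changed sign. The sign changes were in 14 miRNAs, none of which passed as reported or under that alternative. Without 1 library, miR-10b-5p ranged from -0.11 to 0.36, miR-143-3p from -0.45 to 0.27, miR-145a-3p from -0.0917 to 0.47, miR-148a-5p from -0.37 to 0.13, miR-192-5p from -0.39 to 0.0397 and miR-195a-3p from -0.044 to 0.58. With the red cell ratio as a covariate, miR-10b-5p was at -0.049, miR-126a-5p at 0.0923, miR-148a-5p at 0.29, miR-26b-5p at 0.25 and miR-451a, a part of that ratio, at 0.13. With a minimum count of 50, miR-10b-5p was at -0.0164 and miR-143-3p at -0.0045. With the replicate block, miR-143-3p was at -0.0245 and miR-148a-5p at 0.0028, and with limma voom miR-143-3p was at -0.018. With totals alone miR-148a-5p was at 0.0127, and with no filter it was at 0.0822 and miR-221-3p at 0.0006. Run 1 alone gave -0.10 for miR-30b-5p and -0.0909 for miR-338-5p. Run 2 alone gave 1.15 for miR-1298-5p, -0.12 for miR-145a-3p and 0.016 for miR-26b-5p. Thinning gave 0.10 for miR-142-5p and -0.19 for miR-338-5p.

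The labels give no pairing by replicate number, and none was assumed. The deviations of ICH and Naive libraries of the same number correlated at -0.28, 0.37, 0.08, 0.27 and 0.05 over the 199 miRNAs. Libraries of different numbers were not compared in this way, so these values cannot show whether the numbers pair the samples. With the replicate block 27 miRNAs passed between ICH and Naive, 23 of the 29 among them. Depth limits the low end most, since Naive libraries hold down to 38393 counts, and the single count of miR-300-3p in Naive 5 is worth 22.7 CPM.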

Other observations

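For 2 miRNAs the ICH and Naive libraries did not overlap although the test did not pass. miR-30e-5p, of the broadly expressed miR-30 family, had 486.9 to 792.3 CPM in Naive libraries and 821.2 to 1139 in ICH libraries (log2 fold change 0.52, edgeR adjusted p = 0.205). miR-6538 had 45.3 to 128 CPM in Naive and 19.8 to 40.3 in ICH (-1.19, adjusted p = 0.0978), from few reads. ICH against ICH_Sham gave 1.36 for miR-34c-5p (adjusted p = 0.441), -1.12 for miR-6538 and 1.10 for miR-615-3p (adjusted p = 0.462 for each), which were among the miRNAs with the smallest p of that comparison. Against MCAO, ICH libraries were lower in epithelial miRNAs of the miR-200 family. Among them miR-200c-3p was at -1.91 (adjusted p = 0.00123), and miR-200b-3p and miR-200a-3p were at -1.65 and -1.63 (adjusted p = 0.00171 for each). From the same list miR-182-5p was also lower (-1.43, adjusted p = 0.0373), while miR-203-3p and miR-205-5p were higher. The miR-181 family members miR-181a-5p and miR-181b-5p were higher in ICH than in MCAO, by 0.91 (adjusted p = 0.00123) and 1.14 (adjusted p = 0.00153).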
